A study of Homo sapiens with 8 samples.

Results

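The 10 genes described here make, move and trim the peptides that class I molecules display: the immunoproteasome catalytic subunits PSMB8, PSMB9 and PSMB10, the PA28 activator subunits PSME1 and PSME2, the peptide transporter TAP1 and TAP2, tapasin (TAPBP), the aminopeptidase ERAP1 and the transactivator NLRC5. They were chosen by name, through their Ensembl identifiers, and all 10 were found among the 48162 identifiers counted. RNA came from HT-29, a human colorectal adenocarcinoma line, as 4 libraries of wild-type cells (WT) and 4 of the MIEN1 KO line HT-29-pMIEN1-X (MIEN1_KO), with no drug or cytokine named in the labels. The edited cells had been electroporated with plasmids for a guide on each side of MIEN1 and for Cas9, selected in puromycin and cloned from single cells. The labels do not say whether the WT cells were cloned or how many edited clones were used, so the edit, the selection and the cloning cannot be told apart in any difference below. Each replicate pooled RNA from 4 dishes, and the labels call the replicates independent.

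Cells cut cytosolic proteins in the proteasome, a barrel whose cutting is done by catalytic subunits. Interferon can replace the constitutive catalytic subunits PSMB5, PSMB6 and PSMB7 with PSMB8, PSMB9 and PSMB10, which favour peptides with ends that fit class I molecules, while the PA28 cap of PSME1 and PSME2 opens the barrel. The TAP1 and TAP2 pair pumps the peptides into the endoplasmic reticulum, tapasin holds empty class I molecules beside the pump, and ERAP1 trims peptides to length. NLRC5 switches on many class I pathway genes. Loss of steps of this route is known from colorectal tumours that escape T cells.

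The genes are scattered over a few places in the genome (GRCh38, GENCODE release 29). PSMB8, PSMB9, TAP1 and TAP2 lie together in 37753 bases of the major histocompatibility complex, chr6:32821833-32859585, and TAPBP lies farther along the same arm at chr6:33299694-33314387. PSME1 (chr14:24136158-24138967) and PSME2 (chr14:24143362-24147570) are 4394 bases apart on chromosome 14. PSMB10 (chr16:67934502-67937087) and NLRC5 (chr16:56989485-57083531) are on chromosome 16, and ERAP1 (chr5:96760810-96808100) is on chromosome 5. PSMB9, PSME1 and NLRC5 are on the plus strand and the other members on the minus strand.

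The starts of these genes share short interferon-type motifs, shown here because the members that rose and those that were not called both carry them. In RefSeq promoters (GRCh38.p14, 250 bases before to 50 after each annotated start), which covered 9 members in 12 windows, the core of an interferon-stimulated response element, GAAA, any 2 bases and GAAA again, was found for 8 members. It was in 8 of the 12 member windows and in 3.57% of the 35116 windows of all genes. In the stretches of 30 bases below, each read along its gene from 5′ to 3′, capitals mark the core, or 2 overlapping cores in TAP1 and TAPBP. They lie at chr6:32853816-32853845 (TAP1), chr6:32838778-32838807 (TAP2), chr6:33314076-33314105 (TAPBP), chr14:24146619-24146648 (PSME2), chr6:32844032-32844061 (PSMB8), chr16:67936852-67936881 (PSMB10), chr14:24136189-24136218 (PSME1) and chr5:96807924-96807953 (ERAP1).
TAP1: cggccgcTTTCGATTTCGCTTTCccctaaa
TAP2: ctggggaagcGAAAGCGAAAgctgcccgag
TAPBP: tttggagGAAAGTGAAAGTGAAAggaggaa
PSME2: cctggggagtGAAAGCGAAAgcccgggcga
PSMB8: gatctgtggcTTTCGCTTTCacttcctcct
PSMB10: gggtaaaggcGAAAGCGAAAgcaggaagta
PSME1: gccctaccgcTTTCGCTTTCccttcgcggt
ERAP1: cgggctccacTTTCACTTTCggtcctgggg

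The core was wholly before the start in 5 of the 8 (TAP1, TAP2, TAPBP, PSME2 and PSMB10), and ran over or followed it in PSMB8, PSME1 and ERAP1. In the whole windows it was present for 5 of the 6 members of the promoter table that were called higher below, and for all 3 that were not called. Wholly before the start, it was present for TAP1, TAP2, TAPBP and PSME2, which were called, and for PSMB10, which was not. Whether the core goes with the calls was not tested. The window of PSMB9, which begins at chr6:32853942, had no such core. Between its start (chr6:32854192) and that of TAP1 (chr6:32853704) lie 487 bases, and the 2 genes point away from each other. The 2 overlapping cores of TAP1 (chr6:32853823-32853838) lie between these starts, outside the PSMB9 window. The 169 bases between the annotated exons of the 2 genes (chr6:32853979-32854147, plus strand) do not reach those cores. The 169 bases are printed here because PSMB9 and TAP1 rose together. They held 1 GC box, GGGCGG, in capitals.
TAP1-PSMB9: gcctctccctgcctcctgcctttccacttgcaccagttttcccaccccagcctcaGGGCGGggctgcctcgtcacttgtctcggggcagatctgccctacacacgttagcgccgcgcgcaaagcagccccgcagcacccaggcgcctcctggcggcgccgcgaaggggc

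A motif of the gamma-activated sequence type, TTCNNNGAA, was found in windows of PSMB8 (chr6:32844093-32844122) and TAP1 (chr6:32852931-32852960), against 7.66% of all windows, and in no window of the other 7 members. Capitals mark it.
PSMB8: aactgtccttTTCTCGGAAaaggcaggggg
TAP1: gtagcgtgggTTCTGGGAAatgtggagcag
The kB-type motif, GGG, any 3 bases and TCCC, was found for PSME2 and ERAP1, in 2 of the 12 windows (7.59% of all windows). The GC box was found for 7 members, in 9 of the 12 windows (45% of all windows). TGACGNNA, a core of cyclic AMP response elements, was found for none (7.55% of all windows). The 5 motifs were searched on both strands, and none of them holds another. A match here is a string of letters and was not tested as a binding site.

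Depth ran from 21940903 to 25148790 counts per library, and 14228 genes passed the filter on low counts. MIEN1 itself was at 19.8 to 23.1 CPM (counts per 1000000 of a library size scaled with TMM factors) in WT and at 0.625 to 1.06 CPM in MIEN1_KO, low in every library labelled as edited. The edited libraries differ more among themselves than the WT libraries do, and MIEN1_KO replicate 4 stands apart: its counts differed from those of the other edited libraries with a chi-square of 29 to 32.8 for each degree of freedom, where those differed among themselves by 3.39 to 13 and WT libraries by 2.47 to 7.35. It held the highest MIEN1_KO level of 6 of the 10 members. Results were therefore also computed without it. Of the 8 epithelial markers all had reads, 4 were called higher (the keratins KRT8, KRT18, KRT19 and KRT20, log2 fold changes 0.40 to 0.51), 1 lower and 3 not called, EPCAM among these at 464 CPM in WT and 446 CPM in MIEN1_KO. The lower one, the intestinal factor CDX2, was at 6.19 CPM in WT and nearly absent in MIEN1_KO (0.273 CPM).

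All 10 members passed the filter on low counts. In MIEN1_KO 7 were higher than in WT and 0 lower at an edgeR adjusted p below 0.05 (Benjamini-Hochberg over all tested genes), and 3 were not called. Of all tested genes 41.7% were called, 21.0% higher and 20.7% lower. The same 7 had every MIEN1_KO library above every WT library, which held for 20.1% of all genes, while 41.0% had groups apart in either direction. The median log2 fold change of the members was 0.63, against -0.02 over all tested genes. 4 members were called higher with at least a 2-fold increase, a log2 fold change of 1, as were 1.72% of all genes. PSMB8, at 1.02, fell below that size with the trend on GC content removed (0.93, with or without the replicate block). It also did so with upper-quartile factors (0.96) and without MIEN1_KO replicate 4 (0.96). NLRC5 and PSMB9 had the highest estimates, then TAP1, PSMB8, the pair TAPBP and TAP2, and PSME2, with PSMB10, PSME1 and ERAP1 not called. Within the pairs the order was not stable: PSMB9 was above NLRC5 under 7 of 17 alternatives, and TAP2 above TAPBP under 5. The 7 calls held without MIEN1_KO replicate 4 and without any other single library.

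**Figure D1:**
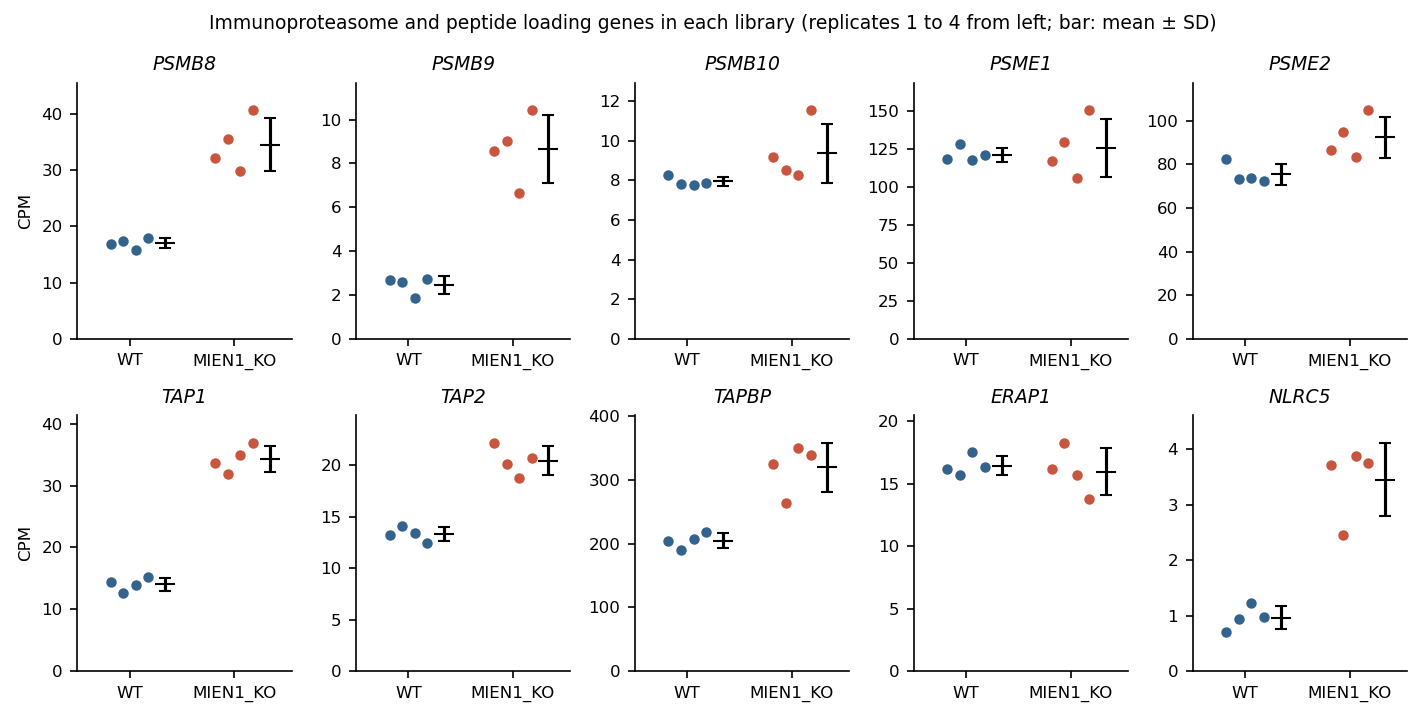
Level of each of the 10 genes in CPM (vertical axis, from 0, a scale of its own in each panel) in the 4 WT and 4 MIEN1_KO libraries, replicates 1 to 4 from left to right, with mean ± SD beside the points. The groups are apart for PSMB8, PSMB9, PSME2, TAP1, TAP2, TAPBP and NLRC5 and overlap for PSMB10, PSME1 and ERAP1.

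Both immunoproteasome subunits encoded in the chromosome 6 cluster rose in the edited line, and the subunit on chromosome 16 was not called. PSMB8 (ENSG00000204264), the chymotrypsin-like subunit, was at 16.9, 17.4, 15.9 and 17.9 CPM in WT replicates 1 to 4. In MIEN1_KO it was at 32.3, 35.6, 29.8 and 40.7 CPM. Every edited library was above every WT library, with replicate 4 the highest. The mean rose from 17.03 ± 0.881 to 34.6 ± 4.69 CPM (SD, n = 4), a log2 fold change of 1.02 (SE 0.10, edgeR adjusted p = 2.1e-06).

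PSMB9 (ENSG00000240065), which in the immunoproteasome replaces the caspase-like subunit, started from a much lower level. Its WT values were 2.68, 2.61, 1.85 and 2.73 CPM, with WT replicate 3 the low one. Its MIEN1_KO values were 8.58, 9.05, 6.66 and 10.4 CPM, all well above WT. With 44 to 67 counts per WT library and 144 to 225 per edited library, the mean rose from 2.47 ± 0.413 to 8.68 ± 1.56 CPM (n = 4), a log2 fold change of 1.81 (SE 0.16, edgeR adjusted p = 1.1e-06).

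PSMB10 (ENSG00000205220), the trypsin-like subunit, was at 8.28, 7.83, 7.78 and 7.88 CPM in WT and at 9.16, 8.51, 8.27 and 11.5 CPM in MIEN1_KO. The groups touch, since MIEN1_KO replicate 3 lay just below WT replicate 1, and replicate 4 was the high one. The difference of 7.94 ± 0.231 against 9.37 ± 1.49 CPM (n = 4) missed the threshold (log2 fold change 0.24, SE 0.11, edgeR adjusted p = 0.0986).

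Each immunoproteasome subunit takes the place of its constitutive counterpart in the barrel, so the RNA of the 2 was compared within each library, per kilobase of exon, where the scaling of the library cancels. The constitutive subunits were themselves somewhat higher in MIEN1_KO: PSMB5 at 86.4 ± 5.19 against 109.3 ± 15.4 CPM (n = 4, log2 fold change 0.34, edgeR adjusted p = 0.00933) and PSMB6 at 88.2 ± 4.56 against 108.5 ± 19.6 CPM (n = 4, 0.30, edgeR adjusted p = 0.0327). PSMB7 was at 145.9 ± 7.10 against 170.6 ± 23.6 CPM (n = 4, 0.23, edgeR adjusted p = 0.0555), just missing the threshold, which it passed under 8 of 17 alternatives. The PSMB6 call was lost with upper-quartile factors (adjusted p = 0.0638), with the trend on GC content removed (0.0968), and without WT replicate 2, 3 or 4 (0.0666, 0.0724 and 0.0706).

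PSMB8 and PSMB9 took a larger part of their pairs in the edited line. The share of PSMB8 in the summed RNA of PSMB8 plus PSMB5 was 9.81% to 11.7% in the WT libraries and 15.3% to 16.2% in the MIEN1_KO libraries. PSMB9 went from 1.01% to 1.49% of PSMB9 plus PSMB6 in WT to 3.30% to 3.92% in MIEN1_KO. In neither pair did the groups overlap. PSMB10 showed no such step, at 4.87% to 5.15% of PSMB10 plus PSMB7 in WT and 4.52% to 5.24% in MIEN1_KO, with the groups overlapping. On the log2 scale the ratio differed by 0.68 for PSMB8 to PSMB5 and by 1.53 for PSMB9 to PSMB6, each with an exact two-sided permutation p = 0.0286, the smallest that 4 against 4 libraries can give, or 0.0429 adjusted over the 3 ratios. For PSMB10 to PSMB7 it differed by 0.009 (exact permutation p = 0.914), with SDs of 0.037 in WT and 0.108 in MIEN1_KO. These are ratios of RNA, in which the immunoproteasome subunits remain the smaller part in both lines.

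**Figure D2:**
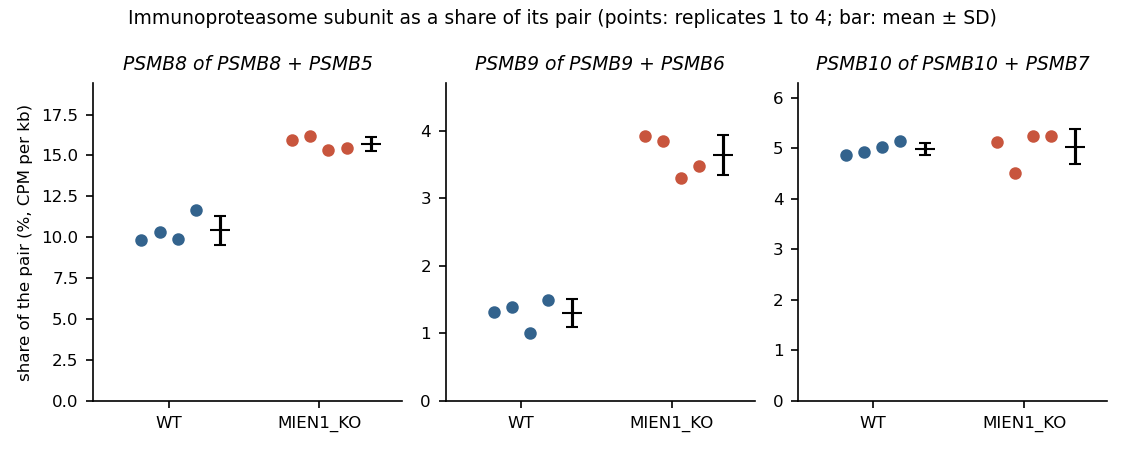
Share of each pair's RNA taken by the immunoproteasome subunit (vertical axis, percent of the summed CPM per kilobase, from 0), in the 4 WT and 4 MIEN1_KO libraries with mean ± SD. The share of PSMB8 is 9.81% to 11.7% in WT and 15.3% to 16.2% in MIEN1_KO, that of PSMB9 rises above 3%, and that of PSMB10 overlaps between the groups.

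Of the PA28 pair, PSME2 rose by a small step and PSME1 was not called. PSME2 (ENSG00000100911), the beta subunit of the cap, was at 82.4, 73.05, 73.6 and 72.4 CPM in WT and at 86.4, 94.7, 83.4 and 104.7 CPM in MIEN1_KO. WT replicate 1 was the high one of its group and came close to MIEN1_KO replicate 3. The mean rose from 75.4 ± 4.73 to 92.3 ± 9.57 CPM (n = 4), a log2 fold change of 0.29 (SE 0.08, edgeR adjusted p = 0.0105).

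PSME1 (ENSG00000092010), the alpha subunit, was at 118.2, 127.8, 117.8 and 120.6 CPM in WT and at 117, 129.4, 105.9 and 150.2 CPM in MIEN1_KO, so that edited libraries lay both below and above the WT range. It was not called (log2 fold change 0.05, SE 0.09, edgeR adjusted p = 0.68). Per kilobase PSME2 stood at 0.284 to 0.347 of the PSME1 level in WT and at 0.347 to 0.392 in MIEN1_KO, the ranges meeting at their ends. The third activator, PSME3, which forms a nuclear cap of its own, was at 228 ± 5.94 CPM in WT and 256 ± 9.06 CPM in MIEN1_KO (n = 4, log2 fold change 0.16, edgeR adjusted p = 0.0369), a call lost under 9 of 17 alternative settings.

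All 3 genes of the pump and its tether rose. TAP1 (ENSG00000168394) was at 14.4, 12.7, 13.9 and 15.2 CPM in WT and at 33.7, 31.9, 34.9 and 36.96 CPM in MIEN1_KO. It was the tightest of the 10 among the edited libraries, with an SD of 6.14% of the mean, and every edited library was more than 2-fold above every WT library. The mean rose from 14.05 ± 1.04 to 34.4 ± 2.11 CPM (n = 4), a log2 fold change of 1.29 (SE 0.08, edgeR adjusted p = 3.5e-08).

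TAP2 (ENSG00000204267), its partner in the pump, was at 13.2, 14.1, 13.5 and 12.4 CPM in WT and at 22.2, 20.1, 18.8 and 20.8 CPM in MIEN1_KO. The groups are apart, by a smaller step than for TAP1. The mean rose from 13.3 ± 0.712 to 20.5 ± 1.43 CPM (n = 4), a log2 fold change of 0.62 (SE 0.08, edgeR adjusted p = 4.2e-05). Per kilobase of exon the level of TAP1 was 1.19 to 1.63 times that of TAP2 in WT and 2.02 to 2.47 times in MIEN1_KO, with no overlap of the libraries.

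TAPBP (ENSG00000231925), tapasin, the bridge between the pump and class I molecules, was the most abundant member after PSME1 per kilobase. It was at 203.3, 189.8, 207.3 and 217.8 CPM in WT and at 324.5, 263.7, 350.5 and 339.7 CPM in MIEN1_KO, with replicate 2 the lowest edited library and still above WT. The mean rose from 204.6 ± 11.6 to 319.6 ± 38.8 CPM (n = 4), a log2 fold change of 0.64 (SE 0.09, edgeR adjusted p = 6.0e-05). Its relative TAPBPL, which edits peptides away from the pump, was at 4.28 ± 0.429 in WT and 4.31 ± 1.02 CPM in MIEN1_KO and was not called (n = 4, edgeR adjusted p = 0.977).

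ERAP1 (ENSG00000164307) did not follow. It was at 16.2, 15.7, 17.5 and 16.3 CPM in WT and at 16.2, 18.3, 15.7 and 13.8 CPM in MIEN1_KO, with the groups interleaved (log2 fold change -0.04, SE 0.09, edgeR adjusted p = 0.755). ERAP2, which trims peptides beside it, rose from 62.6 ± 3.69 to 76.5 ± 1.68 CPM (n = 4, log2 fold change 0.29, edgeR adjusted p = 0.00282, and 0.50 with the trend on GC content removed). Per kilobase ERAP1 was at 0.239 to 0.258 of the ERAP2 level in WT and 0.169 to 0.219 in MIEN1_KO.

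NLRC5 (ENSG00000140853), the regulator of the group, had the fewest reads, and its fold change was within the error of that of PSMB9. The WT libraries had 17, 24, 29 and 22 counts and the MIEN1_KO libraries 89, 59, 84 and 81, or 0.711 to 1.22 CPM against 2.46 to 3.88 CPM. Even the lowest edited library, replicate 2, was above the highest WT library. The mean rose from 0.959 ± 0.208 to 3.45 ± 0.665 CPM (n = 4), a log2 fold change of 1.84 (SE 0.20, edgeR adjusted p = 9.6e-06). Leaving out each library in turn gave 1.73 to 1.99, and removing the trend on GC content 1.64.

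**Figure D3:**
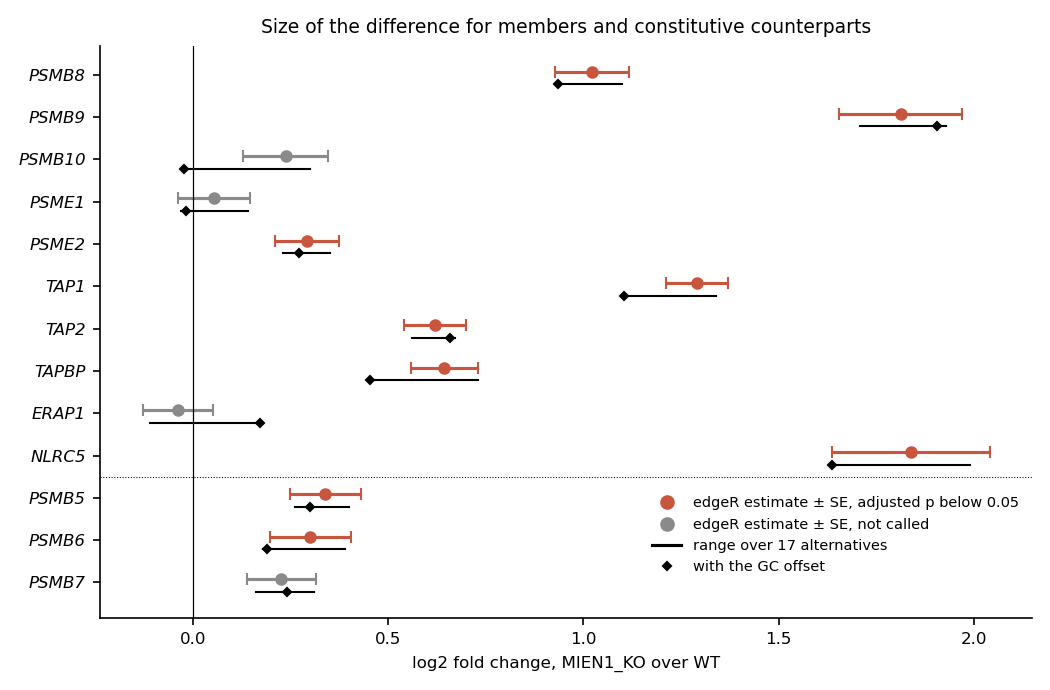
Log2 fold change of MIEN1_KO over WT (horizontal axis) for the 10 members and, under the dotted line, the 3 constitutive counterparts. Circles are edgeR estimates ± SE, black lines span 17 alternative settings and diamonds mark the fit with the trend on GC content removed. The lines of the 7 called members stay to the right of 0, and those of PSMB10, PSME1 and ERAP1 reach both sides of it.

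The members span a wide range of levels. Per kilobase of exon, PSME1 was the highest in WT (68 ± 2.61 CPM per kilobase), followed by TAPBP (40.5 ± 2.29), PSME2 (21.04 ± 1.32), PSMB8 (5.68 ± 0.294), PSMB10 (4.29 ± 0.125) and TAP1 (2.92 ± 0.217). Then came TAP2 (2.08 ± 0.112) and ERAP1 (2.07 ± 0.0974), whose WT libraries overlap, then PSMB9 (0.803 ± 0.135) and NLRC5 (0.0774 ± 0.0168), all n = 4. In MIEN1_KO the order changed at 2 places. TAP1 (7.15 ± 0.439 CPM per kilobase) passed PSMB10 (5.06 ± 0.805), and PSMB9 (2.82 ± 0.507) passed ERAP1 (2.01 ± 0.233), the libraries of the second pair overlapping. PSME1 and TAPBP, and TAP2 and PSMB9, also overlapped there. This order, and the shares and ratios between genes above, depend on the length used. ERAP1 has 7945 bases of merged exons and 5495 in its longest transcript, and TAP2 6390 and 5684.

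Some members share exon bases with other genes, and no source used here says whether counting used strand. PSMB8 shares 20.6% of its exon bases with PSMB8-AS1 on the other strand, which had 3 counts over WT and 24 over MIEN1_KO, few beside the 1636 and 3151 of PSMB8. Reads of shared bases that were left uncounted would be in neither of these counts. TAP1 shares 9.49% of its exon bases with PSMB8-AS1, also on the other strand. PSMB8 and PSMB9 share 139 exon bases. ERAP1 shares 299 exon bases with CAST, which fell from 84.1 to 38.02 CPM (log2 fold change -1.15, edgeR adjusted p = 2.0e-08). TAP2 shares 32.3% of its exon bases with AL669918.1 on the same strand, at 0 in all 8 libraries. PSMB10 shares 34.8% with AC040162.1, also on the same strand. Levels per kilobase use all exon bases. Reads of shared bases that were left uncounted would lower the levels of genes such as TAP2 and PSMB10. If counting ignored strand, PSMB8 and TAP1 would be among them, and with them the share of PSMB8 and the TAP1 to TAP2 ratio. The part of such reads in the results was not tested.

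The chromosome 6 cluster lies among class II genes, which did not rise with it. Of 20 other genes counted within 200 kb, 4 were tested: 0 were higher and 2 were lower. HLA-DMB was at 2.39 ± 0.378 in WT and 1.68 ± 0.321 CPM in MIEN1_KO (n = 4, log2 fold change -0.505, edgeR adjusted p = 0.0374). HLA-DMA was at 4.56 ± 0.696 and 3.21 ± 0.911 CPM (n = 4, -0.515, edgeR adjusted p = 0.0355). Together they form the DM chaperone of class II loading. The HLA-DMA call was lost without WT replicate 2 or 4 or MIEN1_KO replicate 1 or 2 (adjusted p from 0.0907 to 0.121). The HLA-DMB call was lost under 7 of 16 alternatives: the DESeq2 Wald test, the removed GC trend, and without WT replicate 1, 2 or 4 or MIEN1_KO replicate 1 or 3 (adjusted p from 0.0641 to 0.117). Without WT replicate 2 or 4 or MIEN1_KO replicate 1 neither was called. BRD2, a chromatin reader next to them, was at 239 ± 1.93 in WT and 254.9 ± 6.10 CPM in MIEN1_KO (n = 4, edgeR adjusted p = 0.2), and HLA-DOA was not called either. The 4 members in their midst rose by 0.62 to 1.81 on the log2 scale.

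**Figure D4:**
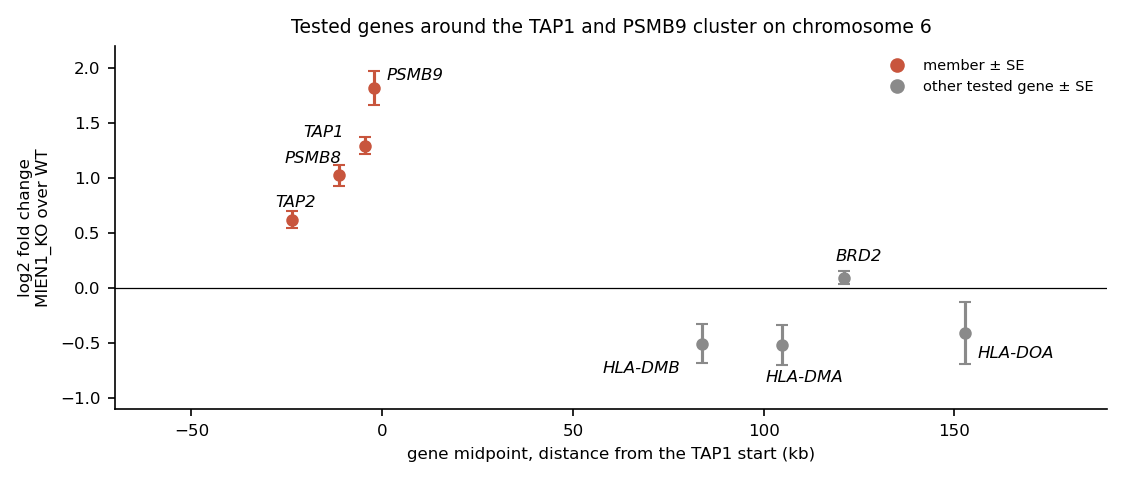
Log2 fold change ± SE (vertical axis) of every tested gene within 200 kb of the chromosome 6 cluster, against the distance of the gene's midpoint from the TAP1 start in kilobases (horizontal axis). The 4 members lie between 0.62 and 1.81, and the 4 other genes at or below 0.093.

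Other proteasome genes had smaller fold changes than PSMB8 and PSMB9. Beside the counts of this and the following lists, the shares over all tested genes were 21.0% higher and 20.7% lower. Of 10 tested core subunits outside the catalytic pairs, 3 were higher, 0 lower and 7 not called (median log2 fold change 0.05), with PSMA7 at 465.8 ± 20.3 in WT and 621.9 ± 99.5 CPM in MIEN1_KO (n = 4, 0.42, edgeR adjusted p = 0.00324, and 0.27 with the trend on GC content removed and the replicate block) and PSMB2 at 0.295 (adjusted p = 0.0022, and 0.46 with the trend on GC content removed). Of 18 genes of the 19S regulatory particle, which unfolds tagged proteins, 8 were higher, 0 lower and 10 not called (median 0.15). PSMD13 (0.55, edgeR adjusted p = 4.0e-05) and PSMD3 (0.395, adjusted p = 6.0e-04) had the smallest p, and ADRM1, a ubiquitin receptor, the largest fold change (0.66, adjusted p = 6.0e-04). Of 8 other activators and assembly factors 3 were higher and 0 lower (median 0.13), PSMG3 (0.36) and PSMG4 (0.31) among them. PSMG3 was no longer called with the trend on GC content removed (0.13, adjusted p = 0.172). With that trend removed 6 of the core subunits and 13 of the 19S genes were called higher, and 5 of the 19S genes with upper-quartile factors or without WT replicate 3. PSMB3 was not matched to an identifier in the files.

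Other steps of loading went both ways, as did all tested genes (21.0% higher and 20.7% lower). Of 12 genes, 3 were higher (CALR, ERAP2 and THOP1), 2 lower (TPP2 and BLMH) and 7 not called (median log2 fold change 0.00). CALR, calreticulin, which delivers class I molecules to the pump, rose from 681.5 ± 11.7 to 861.8 ± 50.6 CPM (n = 4, 0.34, edgeR adjusted p = 8.3e-04). BLMH, a cytosolic peptidase, fell from 8.98 ± 0.754 to 6.23 ± 0.387 CPM (n = 4, -0.53, edgeR adjusted p = 7.5e-04). THOP1 and TPP2 are peptidases of the cytosol too. With the trend on GC content removed 6 were higher and 1 lower.

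The class I molecules that receive the peptides rose with the members. Of 6 tested class I genes 5 were higher and 0 lower, among them B2M, the light chain (405.6 ± 12.6 to 543.8 ± 49.6 CPM, n = 4, log2 fold change 0.42, edgeR adjusted p = 4.3e-04) and HLA-B (3.29, edgeR adjusted p = 9.5e-09). Levels of HLA genes depend on how reads shared between them and between alleles were counted. In the class II list, of 5 tested genes 0 were higher and 3 lower (1 lower without WT replicate 2 or 4 or MIEN1_KO replicate 1), CD74, the invariant chain, falling from 8.35 ± 0.809 to 5.53 ± 0.366 CPM (n = 4, -0.59, edgeR adjusted p = 4.7e-04). CIITA, the relative of NLRC5 that drives class II genes, had 59 counts in WT and 48 in MIEN1_KO and was not called (edgeR adjusted p = 0.654). HLA-DRA, HLA-DRB1 and the HLA-DP and HLA-DQ genes of the list had 0 counts in all 8 libraries.

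Genes that act upstream of the members in interferon signalling went in both directions. Of 12 tested receptor and signalling genes 1 was higher (TYK2), 5 lower and 6 not called (median log2 fold change -0.12). IFNGR1, the ligand-binding chain of the interferon gamma receptor, fell from 55.7 ± 2.31 to 38.5 ± 2.49 CPM (n = 4, -0.53, edgeR adjusted p = 4.5e-05), and the kinase JAK1 from 75.1 ± 4.04 to 47.99 ± 7.19 CPM (n = 4, -0.65, edgeR adjusted p = 1.7e-04). With the trend on GC content removed IFNGR1 was at -0.32. With it removed 3 genes of this list were lower, as with the DESeq2 Wald test, and 2 or 3 without MIEN1_KO replicate 1, 3 or 4 or without any one WT replicate. The number called higher was not stable either, at 2 or 3 under 9 alternatives. It was 2 with DESeq2 size factors, the DESeq2 Wald test, no filter on low counts or without WT replicate 1. It was also 2 with that trend removed, with or without the replicate block. It was 3 with the replicate block alone and without MIEN1_KO replicate 2 or 4.

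Among the 6 tested interferon regulatory factors 3 were higher, 0 lower and 3 not called. IRF7 rose from 40.3 ± 4.73 to 88.7 ± 24.0 CPM (n = 4, log2 fold change 1.14, edgeR adjusted p = 5.6e-05), IRF5 from 13.1 ± 0.997 to 21.5 ± 2.40 CPM (n = 4, 0.71, edgeR adjusted p = 5.1e-05) and IRF1, a known activator of PSMB9 and TAP1, from 35.5 ± 1.27 to 44.7 ± 4.53 CPM (n = 4, 0.33, edgeR adjusted p = 0.00408). With the trend on GC content removed IRF7 was at 0.67. Of 5 NF-kB subunits RELA was higher (0.36, edgeR adjusted p = 7.7e-04, and 0.19 with that trend removed) and 4 were not called, of which 2 were lower with it removed. Of the 8 DNA-binding partners through which NLRC5 acts 2 were higher, RFXANK (0.40, edgeR adjusted p = 0.014) and NFYC (0.21, adjusted p = 0.0154), and 1 lower, CREB1 (-0.24, adjusted p = 0.0354). The CREB1 call was lost under 9 of 17 alternatives: with that trend removed, with or without the replicate block (0.00 in both), with the DESeq2 Wald test, without MIEN1_KO replicate 1 or 4, and when any one WT replicate was left out. RFXANK was not called with the trend on GC content removed (0.12, adjusted p = 0.225).

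**Figure D5:**
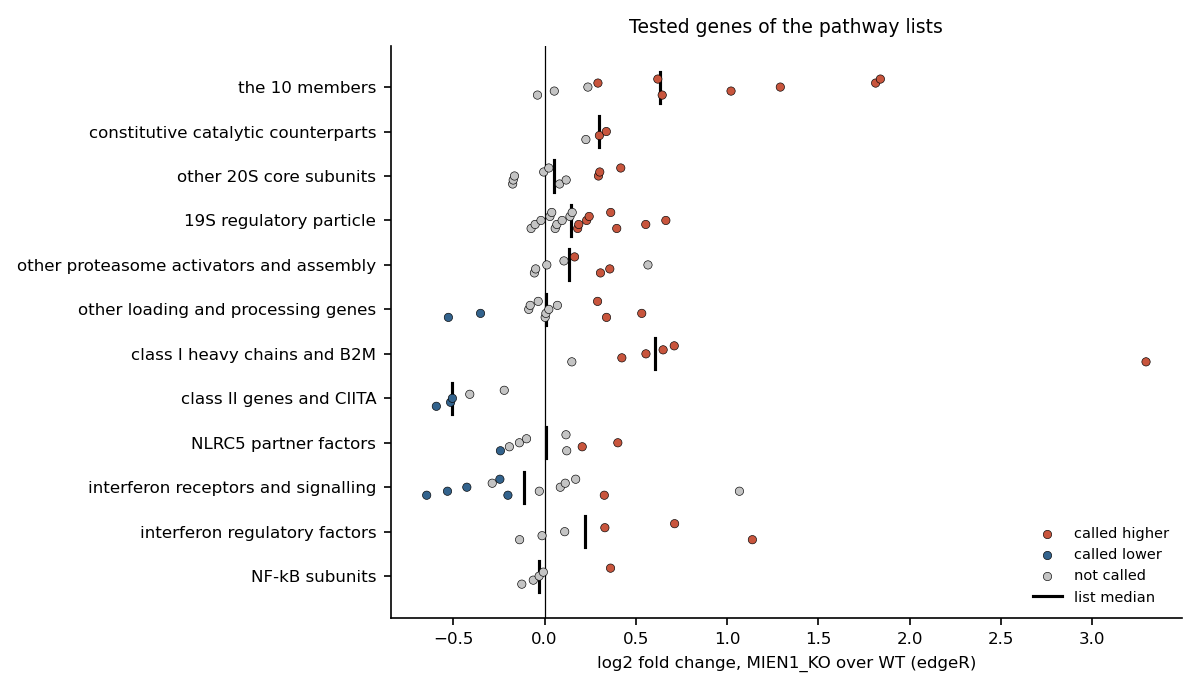
Log2 fold change of MIEN1_KO over WT (horizontal axis) for every tested gene of the 10 members and of the pathway lists with at least 3 tested genes, one row per list. Red points were called higher, blue lower and grey not called, and black bars are medians. The members and the class I genes have medians of 0.63 and 0.60, the class II list -0.50.

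Of the interferons themselves 1 of 8 genes had enough counts to be tested. Among the 8, IFNG and IFNL3 had 0 counts in all 8 libraries, IFNB1 had 0 in WT and 1 in MIEN1_KO, and IFNE alone was tested (117 counts in WT and 101 in MIEN1_KO, edgeR adjusted p = 0.692). Immune cells are rich in several members. Of 10 leukocyte markers 3 were tested, with 0 higher and 2 lower (LYZ and ITGAM), and CD3D, MS4A1 and CD68 had 0 counts in all 8 libraries, and PTPRC, the pan-leukocyte marker CD45, had 0 in WT and 2 in MIEN1_KO. The list summed to 895.6 to 934.5 CPM in WT and 722 to 782.1 CPM in MIEN1_KO, nearly all of it LYZ, which intestinal cells also make. The 8 matched fibroblast and endothelial markers summed to 2.18 to 3.49 CPM in WT and 3.51 to 5.14 CPM in MIEN1_KO, most of it COL1A1, with COL3A1 at 0. Their part in the results was not tested. The epithelial list summed to 10360 to 10750 CPM in WT and 13590 to 17210 CPM in MIEN1_KO. In RNA from whole dishes, more cells with a gene on and more RNA per cell cannot be told apart.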

How the data were processed

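The deposited files hold raw counts per Ensembl gene, 1 file for each of 8 libraries. Per the submitters' processing notes the build was GRCh38 and the tools TopHat2 2.0.9 and HTSeq 0.6.1. The annotation, counting mode, strand setting and treatment of multiply mapped reads are not stated in the labels or notes. Of 48162 identifiers 45342 matched GENCODE release 29. Groups came from the sample titles.

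Genes were tested with edgeR 4.0.16 (filterByExpr, TMM factors, glmQLFit with robust estimation and group as the only term, a two-sided quasi-likelihood test and Benjamini-Hochberg adjustment over 14228 genes, threshold 0.05). The p-values set the difference between the groups against the spread between libraries of the same group. Whether that spread includes one between clones is not stated in the labels. The SE is the one implied by the F statistic. CPM use TMM-scaled library sizes, and levels between genes are per kilobase of merged exons. Ratios of subunits were tested by exact permutation over 70 assignments. Replicate numbers did not pair the libraries. Named genes are the 10 members, 11 others set by name (3 constitutive subunits, PSME3, ERAP2, TAPBPL, CIITA, B2M, HLA-B, IRF1 and MIEN1) and the 2 called genes with the smallest p of each list with at least 5 tested genes; others, named where a count is small or they lie beside a member, were chosen after their values were seen. Some genes that the rule names are not reported here. The members and lists were chosen with earlier results of these data known. The test was tried on simulated counts. Alternatives were DESeq2 1.42.0 size factors and Wald test, upper-quartile factors, 2 other filters, limma-voom (limma 3.58.1), a replicate block, a loess offset (span 0.5) on transcript GC content, which was known for 97.2% of tested genes, with and without the block, and leaving out each library. R 4.3.3 and Python 3.11.15 were used.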

Additional observations from a re-analysis of the deposited data

Results flagged for a closer look

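In 32 groups of 4 libraries (10 members, 3 constitutive subunits and 3 ratios, each in WT and MIEN1_KO), 4 held a library whose gap to its nearest neighbour relative to the group's range was over Dixon's critical value, where chance gives about 1 in 20. PSMB9 was low in WT replicate 3, at 1.85 CPM. PSME2 was high in WT replicate 1, at 82.4 CPM. NLRC5 was low in MIEN1_KO replicate 2, at 2.46 CPM. The log2 ratio of PSMB10 to PSMB7 was low in MIEN1_KO replicate 2, at -4.40. None of them turned a call of a member: the 7 calls held without each of these libraries.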

How the results depend on the processing

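Under all 17 alternatives the same 7 members were called higher and 0 lower. The log2 fold change of PSMB8 ran from 0.93 to 1.10, PSMB9 from 1.71 to 1.93, TAP1 from 1.10 to 1.34, NLRC5 from 1.63 to 1.99, TAP2 from 0.56 to 0.67, TAPBP from 0.45 to 0.73 and PSME2 from 0.23 to 0.35. With the replicate block, 7 members were higher, and no call of a member changed. Same-numbered libraries did not deviate together (correlations -0.076, 0.203, 0.069 and 0.009). The even split of called genes depends on scaling: 50.2% were higher, and 39.7% with upper-quartile factors.

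Members and other genes that were not called changed sign. PSMB10 was at -0.023 with the GC offset and -0.025 with the block added. PSME1 was at -0.019 and -0.028 under these and at -0.005 with upper-quartile factors, and ran from -0.023 to 0.14 without single libraries. ERAP1 was at 0.172 under both (adjusted p = 0.0665 and 0.124) and ran from -0.11 to 0.045 without single libraries. TAPBPL was at -0.186 with the GC offset, -0.194 with the block added, -0.011 under a filter of 50 counts or more in 4 libraries, -0.016 with limma-voom, -0.004 with the block, -0.051 with upper-quartile factors, and -0.143 to 0.112 without single libraries. CIITA ran from -0.50 to 0.07 in this way. The cause was not tested. The difference in the ratio of PSMB10 to PSMB7 ran from -0.013 to 0.062, that of PSMB8 to PSMB5 from 0.652 to 0.746 and that of PSMB9 to PSMB6 from 1.41 to 1.60. Of the tested genes of the other pathway lists 31 were higher and 11 lower. Over all tested genes the shares were 21.0% and 20.7%. With the GC offset 43 list genes were higher and 8 lower, and with upper-quartile factors 25 and 13. With the DESeq2 Wald test 7 list genes were lower. Without single libraries 26 to 36 were higher and 5 to 10 lower. Members with the response-element core fell from 8 to 5 when windows ended at the start. Depth was lowest for NLRC5, with 17 to 29 counts per WT library.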
